A study of Mus musculus with 12 samples.

Results

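Expression of 37 microglia genes was followed in the ventral hippocampus (vHPC) of male mice given oral corticosterone (CORT) or vehicle (VEH). CORT, the main glucocorticoid of rodents, was given in the drinking water at 25 mg/l in 1% ethanol for 6 weeks starting at the age of 2 months, with 1% ethanol as VEH. The mice were C57BL/6 and either wild type (WT) or BDNF het-Met, a knock-in line that carries 1 WT copy and 1 Met copy of the gene for brain-derived neurotrophic factor. The 4 groups (VEH and CORT of WT, VEH and CORT of BDNF het-Met) had 3 libraries each, and each library held the pooled RNA of 2 animals. Behavioral testing was part of the treatment period in this cohort. Genes were chosen by symbol from known markers of microglia, with earlier results of these data known. All 37 were among the 17564 genes with fitted values. The values are those of 1 limma-voom fit over all groups (log2 CPM, with a standard error, SE, for each contrast), and values per library were not analysed here.

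Microglia are the resident macrophages of the brain. At rest they survey the tissue with motile processes, guided by purine and chemokine receptors such as P2ry12 and Cx3cr1, and they depend on the receptor Csf1r for survival. They clear debris and synapses through complement, Trem2 and Mertk, digest the cargo in lysosomes, and can lower their surveillance genes when they become activated. Glucocorticoids bind a nuclear receptor that microglia, like other brain cells, contain.

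Every member of the list had fitted values, and mean expression of the members over the libraries ran from 0.46 (Tlr2) to 6.64 log2 CPM (Csf1r). Per kilobase of exon, the most abundant transcripts were those of the lysosomal proteases Ctss (5.41 log2 CPM per kb) and Lgmn (5.36), followed by C1qb (5.03) and C1qa (4.98). The median over the members was 2.50 log2 CPM per kb, against 1.96 over the 17557 genes matched to the annotation. Ptprc (-2.18) had the lowest level per kb, over an exon union of 18313 bases that includes every annotated isoform. As a check on direction, Fkbp5, a textbook target of the glucocorticoid receptor, was higher under CORT by a log2 fold change of 0.21 (SE 0.09) in WT and of 0.43 (SE 0.08) in BDNF het-Met animals.

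Under CORT, microglia genes had mostly negative log2 fold changes in both genotypes, larger in BDNF het-Met mice, where single genes passed the test. The median log2 fold change of the 37 genes was -0.46 (-27.2%) in BDNF het-Met and -0.19 (-12.5%) in WT mice, against -0.0061 and -0.0026 over all genes. Below 0 lay 36 of 37 members in BDNF het-Met mice, where 51.8% of all genes did, as did 35 of 37 in WT mice, where 51.1% of all genes did. In BDNF het-Met mice 23 members fell at an uncorrected p below 0.05 by limma, against 6.64% of all genes, and 0 rose, against 6.55%. With the ordinary SE of each gene, 11 of the 23 stayed below 0.05. Of the 23 that fell by limma, 15 were differentially expressed genes (DEGs) by the rule of the study. The rule adds a fold change above 1.3 and is met in the downward direction by 2.52% of all genes. In WT mice 0 members fell at p below 0.05, against 1.57% of all genes, 0 rose, against 2.25%, and 0 were DEGs in the downward direction, against 0.672%. After Benjamini-Hochberg adjustment over all genes, 0 members passed 0.05 by limma in either genotype, where the share of all genes was 0% in both. Adjusted p of the members was 0.264 to 0.721 in BDNF het-Met and at least 0.999 in WT mice. In what follows, "fell" refers to the uncorrected threshold, and p-values measure the spread between pooled libraries. In tissue RNA, fewer microglia and less RNA per microglia cannot be told apart.

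**Figure D1:**
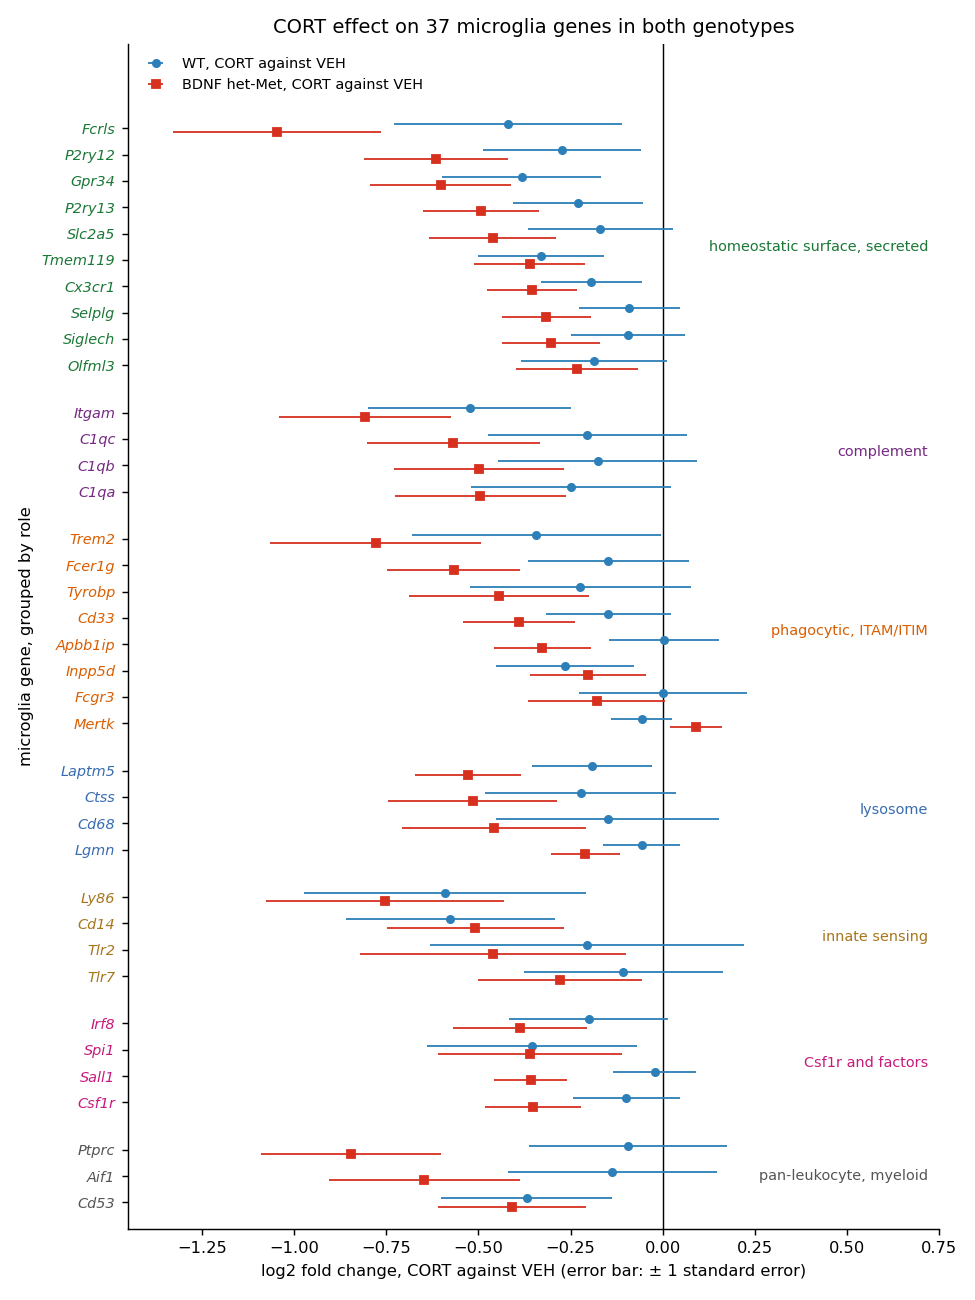
CORT log2 fold change (x axis, CORT against VEH) of each of the 37 microglia genes (y axis, grouped by role) in WT (blue circles) and BDNF het-Met mice (red squares), with bars of 1 SE on each side. Red squares lie left of 0 for 36 genes and reach -1.05 for Fcrls, while blue circles lie left of 0 for 35 genes, most of them nearer to 0.

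The homeostatic surface and secreted genes, which mark surveying microglia, had the highest share of calls: 9 of 10 fell in BDNF het-Met mice and 5 were DEGs. The group had a median log2 fold change of -0.41 in BDNF het-Met and -0.21 in WT mice. Fcrls, a microglial relative of the Fc receptors (chromosome 3, 87250758 to 87263738), had the lowest value of all 37 members, with a log2 fold change of -1.05 (SE 0.28, p 0.00352 by limma), or -51.6%. In WT mice Fcrls was at -0.42 (SE 0.31), with a 95% interval of -1.10 to 0.26.

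The purine receptors moved alongside. P2ry12, the ADP receptor that steers microglial processes to sites of injury (chromosome 3, 59216272 to 59262871), fell by 0.61 on the log2 scale (SE 0.19, p 0.00900 by limma) in BDNF het-Met mice, and was at -0.27 (SE 0.21) in WT mice. P2ry13, a related ADP receptor, fell by 0.49 (SE 0.16, p 0.00979), and Gpr34, a receptor for lysophosphatidylserine on the X chromosome, by 0.60 (SE 0.19, p 0.00950). P2ry12 and P2ry13 are neighbours 5390 bases apart on the minus strand and lie inside Med12l, a gene of the opposite strand, whose log2 fold change was positive in both genotypes (0.23 in BDNF het-Met and 0.21 in WT mice). Only 9 exon bases of P2ry12 overlap an exon of Med12l. The values of the pair therefore went the other way from those of the gene around them.

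Slc2a5, the fructose transporter GLUT5, fell by 0.46 (SE 0.17, p 0.0217 by limma) and was the last homeostatic gene past the fold change of 1.3, which equals 0.38 on the log2 scale. Smaller falls were seen for Tmem119 (-0.36, SE 0.15, p 0.0352), a surface protein used to tell microglia from other macrophages, and for Cx3cr1 (-0.35, SE 0.12, p 0.0147), the receptor of the neuronal chemokine fractalkine. Selplg, the selectin ligand PSGL-1, fell by 0.32 (SE 0.12, p 0.0238), and Siglech, a receptor of the Siglec family, by 0.30 (SE 0.13, p 0.0447). Tmem119 and Selplg are also neighbours, 18020 bases apart on chromosome 5. Tmem119 had nearly equal values in both genotypes, with -0.33 (SE 0.17) in WT mice. Olfml3, a secreted matrix protein, did not pass in either genotype (-0.23, SE 0.17, in BDNF het-Met and -0.19, SE 0.20, in WT mice).

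Among complement genes, 2 of 4 fell in BDNF het-Met mice and both were DEGs. Itgam, the CD11b chain of complement receptor 3 (chromosome 7, 128062640 to 128118491), fell by 0.81 (SE 0.23, p 0.00545 by limma). It was at -0.52 (SE 0.28) in WT mice, with a p of 0.0839. Itgam shares 3450 of its exon bases (68.7%) with Gm49368, a gene model of the same strand that had no fitted values, so the counting of its reads is uncertain. C1qa, C1qb and C1qc code for the chains of C1q, which opens the classical pathway and tags synapses and debris. They sit side by side on chromosome 4, with 3617 bases between C1qb and C1qc and 2852 between C1qc and C1qa. C1qc fell by 0.57 (SE 0.23, p 0.0340), while C1qb (-0.50, SE 0.23, p 0.0549) and C1qa (-0.49, SE 0.23, p 0.0570) lay just outside the threshold. The log2 fold changes of the C1q genes thus differed by less than 1 SE among themselves in BDNF het-Met mice. In WT mice they were -0.20 (C1qc), -0.18 (C1qb) and -0.25 (C1qa), with SEs of 0.27.

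Of the phagocytic receptors and their signalling partners, 4 of 8 fell in BDNF het-Met mice and 3 were DEGs. Trem2, a receptor for lipids and lipoproteins (chromosome 17, 48346401 to 48354147), fell by 0.78 (SE 0.29, p 0.0201 by limma) and was at -0.34 (SE 0.34) in WT mice. Tyrobp, the adaptor DAP12 through which Trem2 signals, did not pass (-0.44, SE 0.24, p 0.0958). Fcer1g, the other adaptor of this kind and a partner of Fc receptors, fell by 0.57 (SE 0.18, p 0.00937). Cd33 fell by 0.39 (SE 0.15, p 0.0262), just inside the fold change minimum, and Apbb1ip, an adaptor of integrin activation, fell by 0.33 (SE 0.13, p 0.0307). In WT mice Apbb1ip was at 0.0042 (SE 0.15). Inpp5d, the lipid phosphatase SHIP1, had values of -0.20 in BDNF het-Met and -0.27 in WT mice, and Fcgr3, an Fc receptor for IgG, of -0.18 and 0.0012. None of these passed. Transcripts of Inpp5d share 84 to 93 bases with those of 5 other genes at 98.8% identity or more.

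Mertk, the receptor kinase for apoptotic cells that bind Gas6 or Pros1, was the sole member above 0 in BDNF het-Met mice. Its log2 fold change was 0.09 (SE 0.07, p 0.233 by limma) there and -0.06 (SE 0.08) in WT mice. Astrocytes also express Mertk. The joint F test of the fit, which spans both CORT contrasts and 1 further contrast, nevertheless gave Mertk an uncorrected p of 0.0185. Removing the squared t of both CORT contrasts from 3 times F leaves a remainder, which carries no direction of effect. It is approximate, and lay below 0 for 610 genes, with a lowest value of -0.118. The remainder was 13.3 for Mertk, at percentile 99.7 of all genes, against a median of 0.334 over the members and of 0.433 over all genes. Mertk lies on chromosome 2 (128698956 to 128802894), the chromosome of Bdnf. The other members on chromosome 2, Spi1 and Apbb1ip, had remainders of 0.0267 and -0.0064. Whether position on this chromosome bears on the remainder was not tested. In all, 10 members had a joint F p below 0.05, where 7.43% of all genes did.

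Lysosomal genes were called in 3 of 4 cases. Laptm5, a lysosomal membrane protein of blood-lineage cells (chromosome 4, 130913125 to 130936141), fell by 0.53 (SE 0.14, p 0.00368 by limma) in BDNF het-Met mice and was at -0.19 (SE 0.16) in WT mice. Ctss, the protease cathepsin S, fell by 0.52 (SE 0.23, p 0.0459), and Lgmn, the protease legumain, by 0.21 (SE 0.09, p 0.0455), the smallest change among the calls. Cd68, a lysosomal glycoprotein often used as a marker of phagocytic activity, had a value close to that of Ctss (-0.46, SE 0.25) but did not pass (p 0.0947).

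Genes of innate sensing had the largest errors and the most similar values in both genotypes, with group medians of -0.48 in BDNF het-Met and -0.39 in WT mice. Ly86, the partner of the Toll-like protein Cd180, fell by 0.75 in BDNF het-Met mice (SE 0.32, p 0.0395 by limma) and had the lowest value of any member in WT mice, at -0.59 (SE 0.38). Cd14, a co-receptor for lipopolysaccharide, came nearest to the threshold in WT mice (-0.58, SE 0.28, p 0.0672) and had a similar value in BDNF het-Met mice (-0.51, SE 0.24, p 0.0577). Tlr2, which senses lipopeptides, was at -0.46 (SE 0.36) and Tlr7, which senses single-stranded RNA, at -0.28 (SE 0.22) in BDNF het-Met mice. Neither passed, and Tlr2 and Cd14 had the lowest mean expression of the list.

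Sall1 and Csf1r fell among the growth factor receptor and transcription factors, 2 of 4, with no DEG. Sall1, a repressor needed for microglial identity (chromosome 8, 89027235 to 89044162), fell by 0.36 (SE 0.10, p 0.00416 by limma) in BDNF het-Met mice and was at -0.02 (SE 0.11) in WT mice. Csf1r, the receptor on which microglial survival depends, fell by 0.35 (SE 0.13, p 0.0200) and was at -0.10 (SE 0.15) in WT mice. Exons of Csf1r overlap Hmgxb3 on the opposite strand by 873 bases (15.1% of its exon bases), and Hmgxb3 was at 0.06 in BDNF het-Met and 0.08 in WT mice. Spi1, which codes for PU.1, the lineage factor of macrophages, had almost the same value in both genotypes (-0.36 in BDNF het-Met, SE 0.25, and -0.35 in WT mice, SE 0.29). Irf8, its partner in microglia, was at -0.39 (SE 0.18, p 0.0561) in BDNF het-Met mice.

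Since PU.1 binds upstream of many myeloid genes, member promoters were searched for its core letters, GAGGAA, on both strands, from 250 bases before to 50 after each RefSeq start (GRCm38.p6). Promoters of 28 of the 37 members were found, and 17 of the 28 (60.7%) held the core, against 31.3% of 27025 genes with a promoter and 30.2% of the 12050 of these with fitted values. The AP-1 letters TGANTCA were in 2 of 28 (7.14%, against 8.97% of all genes) and the composite ETS-IRF element in 1 of 28 (3.57%, against 3.16%). The palindromic glucocorticoid response element was in 0 of 28, against 0.0111% of all genes. Only 3 of 27025 genes held these exact letters, so a search of 28 members could hardly find any. The 0 therefore says nothing about glucocorticoid receptor sites at the members. A match is a description of these letters and not of a bound site. In 9 members the core lay wholly within the 60 bases just before the start. Of these 6 are shown, 5 genes that fell in BDNF het-Met mice and Inpp5d, which did not pass. C1qb, Cd53 and Fcgr3 also held the core there, are not shown, and did not pass either. Whether the core goes with the CORT effect was not tested. Letters are read on the gene's strand with the core in capitals, where TTCCTC is the core on the other strand. Counted from the start, where -1 is the last base shown, the core begins at -48 in P2ry13 (chr3:59210883-59210942, minus strand), at -38 in Laptm5 (chr4:130913256-130913315, plus) and at -40 in Trem2 (chr17:48346341-48346400, plus). It begins at -15 in Itgam (chr7:128062580-128062639, plus), at -7 in Aif1 (chr17:35176053-35176112, minus) and at -20 in Inpp5d (chr1:87620252-87620311, plus).
P2ry13: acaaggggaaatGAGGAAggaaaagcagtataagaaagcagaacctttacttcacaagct
Laptm5: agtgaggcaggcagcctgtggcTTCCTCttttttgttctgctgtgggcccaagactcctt
Trem2: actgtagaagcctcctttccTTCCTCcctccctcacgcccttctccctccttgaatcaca
Itgam: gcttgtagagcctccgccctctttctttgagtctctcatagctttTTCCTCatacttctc
Aif1: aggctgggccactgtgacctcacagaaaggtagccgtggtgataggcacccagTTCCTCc
Inpp5d: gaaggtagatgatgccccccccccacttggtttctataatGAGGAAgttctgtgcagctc

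The pan-leukocyte and myeloid genes had the widest gap between genotypes, with medians of -0.65 in BDNF het-Met and -0.14 in WT mice. Ptprc, the leukocyte phosphatase CD45 (chromosome 1, 138062861 to 138175708), fell by 0.85 (SE 0.24, p 0.00520 by limma) in BDNF het-Met mice and was at -0.09 (SE 0.27) in WT mice. Aif1, which codes for the microglial stain IBA1, fell by 0.65 (SE 0.26, p 0.0297) and was at -0.14 (SE 0.28) in WT mice. Cd53, a tetraspanin of leukocytes, was at -0.41 (SE 0.20, p 0.0668) and at -0.37 (SE 0.23).

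Genotypes were then compared for each gene by the BDNF het-Met minus the WT log2 fold change. The difference was negative for 34 of 37 members, where 51.2% of all genes were, with a median of -0.25. Only Sall1 passed an uncorrected p below 0.05 (difference -0.34, SE 0.15, 95% interval -0.66 to -0.0065, p 0.0463 with limma errors), against 1.34% of all genes in that direction. None of the 37 passed after adjustment with limma errors, where 0% of all genes did, and the smallest adjusted p was 0.9999. Ptprc had the largest difference (-0.75, SE 0.36, 95% interval -1.55 to 0.05, p 0.0622), followed by Fcrls (-0.63, SE 0.42, p 0.164). The 3 positive differences were those of Mertk (0.15, SE 0.11), Cd14 (0.07, SE 0.37) and Inpp5d (0.06, SE 0.24). The 95% interval of the difference included 0 for 36 members, with a median reach of 0.637 to each side. For 34 members the WT interval reached the BDNF het-Met value. The greater number of calls in BDNF het-Met mice was therefore not shown, gene by gene, to be a difference between genotypes, Sall1 excepted before adjustment.

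**Figure D2:**
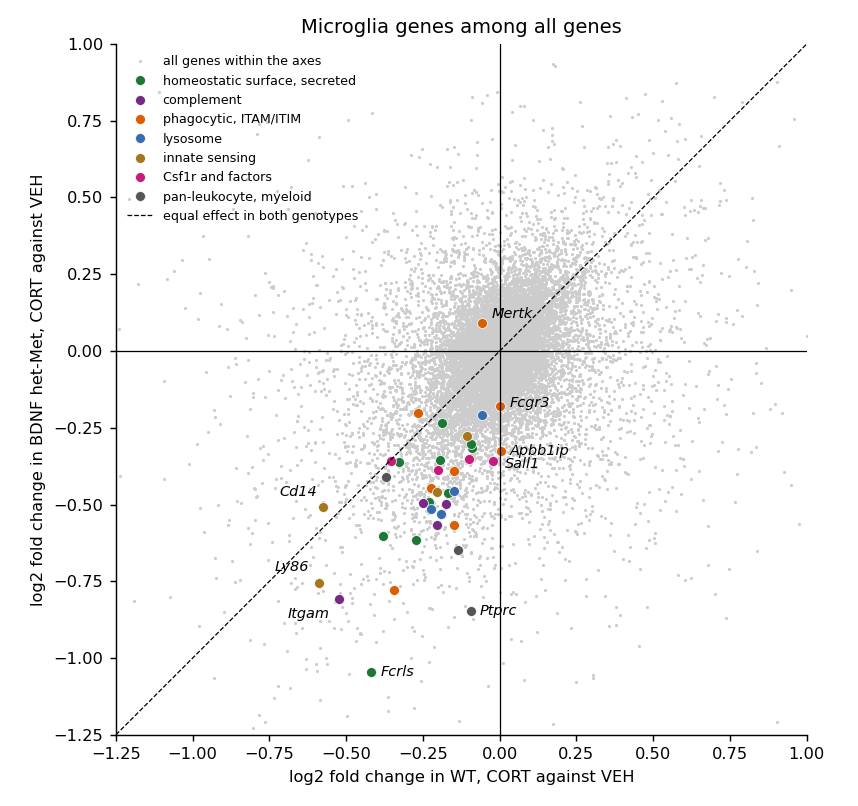
CORT log2 fold change in WT (x axis) and in BDNF het-Met mice (y axis) of the 37 microglia genes (colored by role) over all genes within the axes (gray), with a dashed line of equal effect. Of the microglia genes, 34 lie below 0 on both axes and 34 lie under the dashed line.

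Averaged over genotypes, which uses all groups, 19 members fell at p below 0.05, against 6.18% of all genes, and 0 rose, against 7.17%. Of 37 members, 9 fell with the ordinary SE and 4 with the SEs of both contrasts summed as if fully correlated. All members but Mertk lay below 0 on this average, where 52.2% of all genes did, and values ran from -0.73 (Fcrls) to 0.02 (Mertk). No member passed after adjustment with limma errors (smallest adjusted p 0.208, Itgam), where 13 genes in all (0.074%) did, 2 of them lower and 11 higher under CORT. Of the 19, 17 had also fallen in BDNF het-Met mice alone, and Cd14 (-0.54, SE 0.19, p 0.0140) and Cd53 (-0.39, SE 0.15, p 0.0278) were added. Itgam (-0.67, SE 0.18, p 0.00364), Fcrls (-0.73, SE 0.21, p 0.00509), Gpr34 (-0.49, SE 0.14, p 0.00590) and Laptm5 (-0.36, SE 0.11, p 0.00682) were the 4 members with p below 0.01. Across the members, the BDNF het-Met and WT values correlated with r = 0.554 (Pearson) and rho = 0.555 (Spearman) over 37 genes, which share libraries and the residual spread of the fit, so this is a description only.

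The errors of microglia genes were wide for their expression. The median SE of the members was 0.192 in BDNF het-Met and 0.218 in WT mice, against 0.0898 and 0.102 over all genes. In both genotypes 35 of 37 members lay above the median SE of their own expression quintile. Genes of a cell type can vary together between libraries, so the 37 values are not 37 independent measurements. Residual degrees of freedom were given as 7, while 4 groups of 3 libraries would leave 8. The WT SE exceeded the BDNF het-Met SE by a median factor of 1.12 over all genes, and a WT group of 2 in place of 3 libraries would give 1.118 at equal weights. Which libraries entered the fit was not tested.

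**Figure D3:**
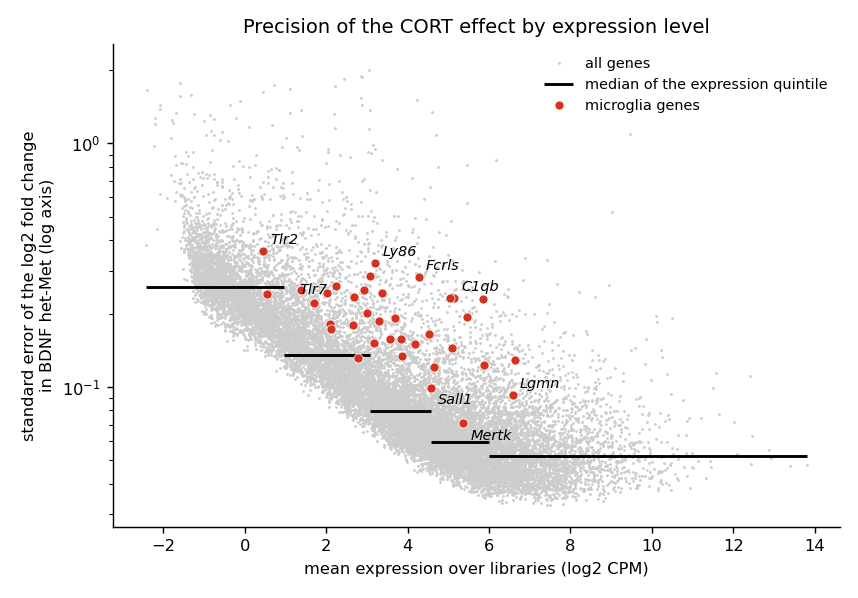
SE of the CORT log2 fold change in BDNF het-Met mice (y axis, log scale) against mean expression (x axis, log2 CPM) for all genes (gray) and the 37 microglia genes (red), with the median of each expression quintile as a black line. All but 2 microglia genes lie above the line of their quintile.

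A list of further microglia genes outside the 37, also chosen with earlier results known, held genes that fell too. Of 36 such genes 34 had values, and 16 fell in BDNF het-Met mice, against 6.64% of all genes, with a median log2 fold change of -0.34. In WT mice the median was -0.15, 0 fell at p below 0.05 by limma, against 1.57% of all genes, and 1 rose, against 2.25%. Rgs10, a regulator of G protein signalling, fell by 0.45 in BDNF het-Met mice (SE 0.11, p 0.00244 by limma), and Blnk, an adaptor of ITAM signalling, by 0.92 (SE 0.24, p 0.00289). Crybb1, a crystallin gene expressed by young microglia, had the opposite sign: it rose in WT mice by 0.63 (SE 0.19, p 0.00818) and was at 0.31 (SE 0.17) in BDNF het-Met mice.

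Genes known to rise in disease-associated microglia were examined next. Of 23 such genes 17 had values, with medians of -0.23 in BDNF het-Met and -0.09 in WT mice, and 2 fell in WT (against 1.57% of all genes) and 6 in BDNF het-Met mice (against 6.64%). None rose at p below 0.05 by limma, where 2.25% and 6.55% of all genes did. Cst7, Itgax, Clec7a, Ccl3, Ccl4 and Lilrb4a were not among the genes with fitted values. Ccl6, a chemokine, fell in both genotypes, by 0.72 in WT (SE 0.22, p 0.00732 by limma) and by 1.09 in BDNF het-Met mice (SE 0.20, p 1.80e-04). B2m, the light chain of MHC class I, also fell in both, by 0.41 (SE 0.16, p 0.0251) and by 0.34 (SE 0.14, p 0.0361). Cd9, a tetraspanin of several glial types, fell by 0.45 (SE 0.17, p 0.0240) in BDNF het-Met mice. Several genes of this list, Cd9 and B2m among them, are also expressed by other brain cells.

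Ligands for the microglial receptors came next. All 8 had values, and the median was -0.06 in both genotypes. Tgfb1, the cytokine that maintains homeostatic genes and is itself made by microglia, fell by 0.39 in BDNF het-Met mice (SE 0.18, p 0.0490 by limma) and was at -0.36 (SE 0.20) in WT mice. Csf1 (-0.08, SE 0.11), Il34 (-0.11, SE 0.07) and Cx3cl1 (-0.03, SE 0.04) in BDNF het-Met mice, the ligands of Csf1r and Cx3cr1, did not pass, and neither did Cd200, Cd47, Gas6 and Pros1.

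Markers of other cells that share genes with microglia were examined in the same way. Of 14 genes of border-associated macrophages, which line vessels and meninges, 10 had values, with medians of -0.13 in BDNF het-Met and 0.11 in WT mice. Among them 7 of 10 had negative values in BDNF het-Met and 4 of 10 in WT mice, and Cd209a alone fell (-2.14, SE 0.69, p 0.0102 by limma, in BDNF het-Met mice). Of all genes, 51.8% were negative in BDNF het-Met and 51.1% in WT mice, and 6.64% fell in the former. F13a1 (0.51 in BDNF het-Met and 0.48 in WT mice) and Pf4 (-0.30 and -0.36) did not pass. Of 12 monocyte and neutrophil genes only Itgal (-0.90 in BDNF het-Met and -0.98 in WT mice, neither past the threshold) and Lcn2 (-0.64 and -1.50, with SEs of 1.23 and 2.07) had values, so that defining genes such as Ccr2, S100a8 and S100a9 could not be followed. Of 12 lymphocyte genes only Igkc had values, and it fell in BDNF het-Met mice (-1.90, SE 0.81, p 0.0380). The part of these cells in the changes of Ptprc, Itgam and Cd53 was not tested. Mean expression was low for Cd209a (-1.60 log2 CPM), Itgal (-1.13), Lcn2 (-1.01) and Igkc (-0.29). All of them lay in the lowest expression quintile, which ran from -2.42 to 0.96 log2 CPM.

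Other tissue markers moved in part with the microglia genes. Oligodendrocyte genes had medians of -0.32 in BDNF het-Met and -0.07 in WT mice, and 4 of 10 fell in the former and 0 in the latter. For astrocyte genes the medians were -0.10 and -0.01, and 4 of 10 fell and 3 rose in BDNF het-Met mice, while 1 fell and 2 rose in WT mice. Among all genes 6.64% fell and 6.55% rose in BDNF het-Met mice, and 1.57% fell and 2.25% rose in WT mice. Aqp4, the water channel of astrocyte endfeet, fell by 0.79 in BDNF het-Met (SE 0.12, p 3.13e-05 by limma) and by 0.52 in WT mice (SE 0.13, p 0.00214). Its averaged fall of 0.65 passed adjustment over all genes with limma errors (adjusted p 0.0431). Aldoc and Aldh1l1, the astrocyte genes with the next smallest p for the averaged effect, went the other way and rose in both genotypes. Aldoc rose by 0.25 in BDNF het-Met (SE 0.06) and by 0.27 in WT mice (SE 0.07). Aldh1l1 rose by 0.19 (SE 0.07) and by 0.25 (SE 0.08) in the same order. Neuronal genes (medians 0.06 in BDNF het-Met and 0.04 in WT mice) and endothelial genes (-0.04 and -0.08) had medians close to 0. At p below 0.05 by limma, 2 of 10 neuronal genes rose in each genotype and 3 on the average over genotypes, while 0 of 10 endothelial genes passed within a genotype and 3 fell on the average. On that average 7.17% of all genes rose and 6.18% fell. All 5 blood genes had positive values in both genotypes (medians 0.64 in BDNF het-Met and 0.58 in WT mice), with 0 past p below 0.05 by limma within a genotype. On the average over genotypes 3 of 5 rose, the globin genes Hbb-bt (0.80, p 0.0230), Hba-a2 (0.59, p 0.0409) and Hbb-bs (0.57, p 0.0448). The 10 choroid plexus genes were all negative in WT mice, from -2.05 to -0.40, and lay between -0.37 and 0.75 in BDNF het-Met mice, with median SEs of 1.51 and 1.39. Choroid plexus holds macrophages of its own. The part of these tissues in the values of the microglia genes was not tested.

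**Figure D4:**
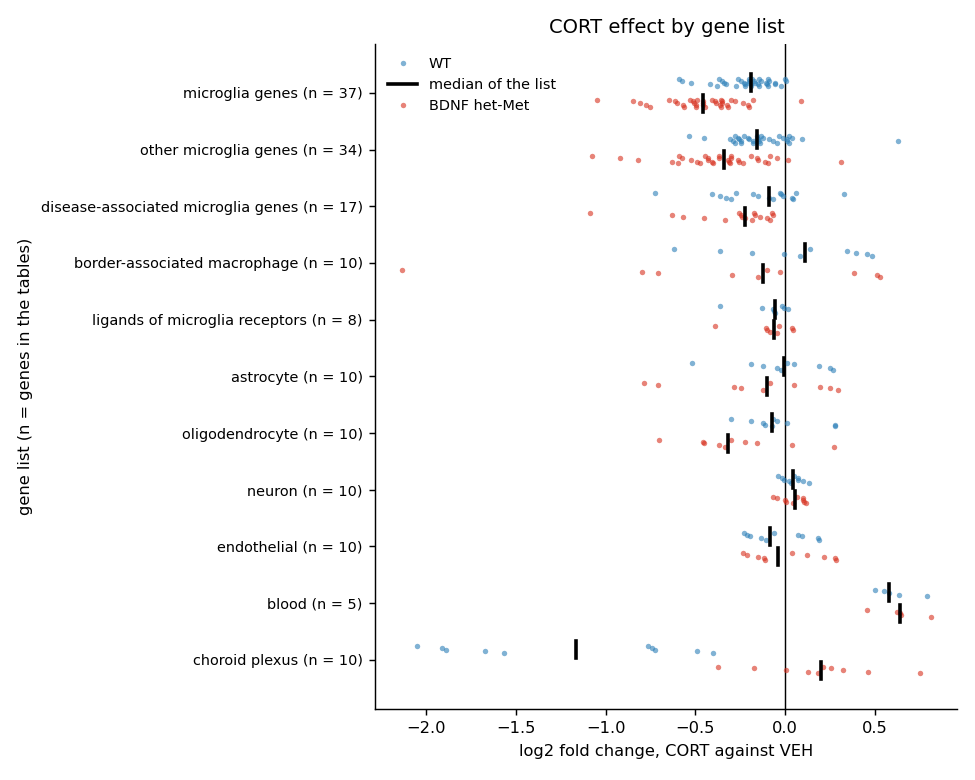
CORT log2 fold change (x axis) of each gene of the microglia list and of 10 other lists (y axis) in WT (blue) and BDNF het-Met mice (red), with the median of each list as a black bar. The medians of both microglia lists lie left of 0 in both genotypes, that of border-associated macrophages changes side, and that of choroid plexus genes lies at 0.20 in BDNF het-Met and -1.16 in WT mice.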

How the data were processed

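RNA of the vHPC, pooled from 2 animals per library, was sequenced as stranded 75-bp single-end reads with 35 to 40 M planned per library (12 libraries, 4 groups of 3, per the labels). Reads of low quality were removed by the authors, who mapped the others with STAR to GRCm38 (mm10 in the submitters' processing notes) with Ensembl annotation, counted them per gene (featureCounts) and fitted limma-voom. Versions, the filter on weakly expressed genes and the settings of the counting were not given in the sources used here.

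Both tables hold only the authors' own comparison, 1 per genotype. Their deposited log2 values are mean expression (log2 CPM), the VEH minus CORT fold change and its ordinary standard error. Their deposited p-values are uncorrected, Benjamini-Hochberg adjusted and of a joint F, and their deposited scores are the moderated t and F. Depth per library is unknown, so precision rests on the standard errors. No value is printed with an n or SD per group for this reason.

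Here the sign was turned to CORT minus VEH and the standard error taken as fold change over moderated t, at 10.9 degrees of freedom. The average over and the difference between genotypes were computed from both estimates with errors taken as independent (no library is in both contrasts), and adjusted by Benjamini-Hochberg over all genes. These steps were tested on simulated data. The estimates of both contrasts were drawn independently there, so that test could not check the independence of errors. A gene passed at an uncorrected p below 0.05, and a DEG also had a fold change above 1.3. Whether the replicates were separate cohorts is not stated.

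The 37 members and all gene lists were chosen with earlier results of these data known. Named genes were every member, with full statistics where p was below 0.05, and of each other list up to 3 genes of smallest p for the averaged effect, beside the 3 genes whose t statistics were nearest to the members' median. Ligands named without a call were chosen after their values were seen. Positions, exon unions and transcripts came from GENCODE M21 (17557 of 17564 identifiers matched, and 7 did not), transcript matches from blastn 2.17.0, and promoters from RefSeq (GRCm38.p6). Alternatives were ordinary errors, stricter thresholds, centring on the median of all genes or of the expression quintile, a minimum of 1 log2 CPM, summed errors, and a mean or a shorter list for the medians. Python 3.11.15, pandas 2.3.3, numpy 2.4.6 and SciPy 1.17.1 were used.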

Additional observations from a re-analysis of the deposited data

Results flagged for a closer look

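Sall1 was the sole member whose CORT effect differed between genotypes by a test of the difference. Its log2 fold change was -0.36 (SE 0.10) in BDNF het-Met and -0.02 (SE 0.11) in WT mice, a difference of -0.34 (SE 0.15) with an uncorrected p of 0.0463 and an adjusted p of 0.9999 with limma errors. With the ordinary standard error or with errors summed it no longer passed 0.05. Among all genes 1.34% passed in the same direction.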

How the results depend on the processing

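In BDNF het-Met mice the 23 members that fell became 11 with the ordinary standard error, 9 at p below 0.01, 15 with a fold change above 1.3 and 8 above 1.5. For the averaged effect the 19 became 9 with the ordinary standard error, 4 at p below 0.01 and 4 with errors summed. For the difference, the 1 call became 0 under the ordinary standard error, at p below 0.01 and with errors summed. The count stayed within 1.5 times its value under both centrings and the expression minimum (21 to 23 in BDNF het-Met mice, 18 averaged, 1 for the difference), and in WT mice it was 0 under each alternative run. Counts after adjustment were 0 throughout with limma errors. Median log2 fold changes ran from -0.22 to -0.18 in WT and from -0.49 to -0.42 in BDNF het-Met mice, including without 8 members that other brain cells also express, and median t was -0.86 and -2.40. A single gene reversed: the difference for Spi1 was 0.0099 after quintile centring and -0.0057 before. No paired analysis was possible because the values used are fitted ones without a column per library, and leaving out a replicate could not be run for the same reason. Depth per library is unknown.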

Other observations

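The 3 genes outside the list whose t statistics lay nearest to the members' medians (-2.40 in BDNF het-Met and -0.86 in WT mice, 1 value per genotype) were Arl4a, Slc40a1 and Cd151. Slc40a1, the iron exporter ferroportin, had log2 fold changes of -0.34 (SE 0.14) in BDNF het-Met and -0.14 (SE 0.16) in WT mice. In the same order, Arl4a, a small GTPase, was at -0.19 (SE 0.08) and -0.08 (SE 0.09), and Cd151, a tetraspanin, at -0.22 (SE 0.09) and -0.09 (SE 0.10).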
